A study of Mus musculus with 8 samples.

Results

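Zic1, Zic2, Zic4 and Zic5, members of the Zic family of zinc finger transcription factors, were examined together with Sox1, Sox2, Olig2, Nkx6-1 and Pax6, transcription factors of neural progenitors. These 9 genes were taken by name from 24675 genes with a symbol. They were chosen by their levels on these same arrays, where earlier results had shown neural genes and Zic1 high on a dorsal array. The arrays compare dorsal aortic tissue, lying above the aorta and under the notochord, with ventral aortic tissue from beneath the vessel, in C57Bl/6 mouse embryos at embryonic day 12.5 with no engineered allele or treatment named. Both tissues were cut by laser from cryosections of the same embryos, and each was measured on 4 Affymetrix arrays (biological replicates 1 to 4). The labels do not say whether a replicate pooled embryos, and each array reports a mixture of cell types. Values are log2 RMA intensities, which are comparable between arrays for a gene but not between genes.

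Zic factors are known for their roles in the dorsal neural tube, including the roof plate and its neighbouring progenitors, and are also made in the somites, the blocks of paraxial mesoderm from which vertebrae, muscle and dermis form. Sox1 and Sox2 maintain neural progenitors, and Sox2 is also present in precursors of peripheral glia. Pax6 acts in progenitors of the middle and ventral spinal cord, Nkx6-1 in ventral progenitors, and Olig2 in the progenitors of motor neurons. The neural tube lies just above the notochord, which bounds the dorsal tissue here, and the sclerotome, the somite part that forms vertebrae, surrounds the notochord. The question put to the arrays was whether the Zic genes followed neural genes or somite genes.

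Zic1 and Zic4 are neighbours on chromosome 9, on opposite strands, with the start sites of the windows below 3204 bases apart, and dorsal replicate 1 was the highest of the 8 arrays for both. The 300-base promoter windows of these genes and of Sox2, the other member far higher on that array, are shown because these are the members with the widest excess there. They are RefSeq sequences of build GRCm38.p6 on the strand of the gene, running from 250 bases before the start site to 50 bases after it, and 8 of the 9 members had a window. Capitals mark the CCAAT box, spelled as named, and the GC box, GGGCGG, on either strand. No matches overlapped. The windows are chr9:91365719-91366018 on the minus strand for Zic1, chr9:91368722-91369021 on the plus strand for Zic4 and chr3:34649745-34650044 on the plus strand for Sox2.
Zic1: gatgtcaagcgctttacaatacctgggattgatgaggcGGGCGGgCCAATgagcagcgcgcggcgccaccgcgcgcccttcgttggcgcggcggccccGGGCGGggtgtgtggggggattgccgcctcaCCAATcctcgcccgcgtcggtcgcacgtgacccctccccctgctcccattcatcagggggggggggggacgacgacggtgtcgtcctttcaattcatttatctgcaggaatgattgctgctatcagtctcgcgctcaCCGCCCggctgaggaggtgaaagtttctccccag
Zic4: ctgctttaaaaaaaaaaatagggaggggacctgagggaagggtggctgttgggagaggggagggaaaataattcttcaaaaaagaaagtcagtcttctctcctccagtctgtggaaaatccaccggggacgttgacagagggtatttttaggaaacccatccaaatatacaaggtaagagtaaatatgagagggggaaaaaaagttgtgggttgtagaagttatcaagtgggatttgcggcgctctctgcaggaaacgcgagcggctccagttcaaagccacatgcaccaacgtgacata
Sox2: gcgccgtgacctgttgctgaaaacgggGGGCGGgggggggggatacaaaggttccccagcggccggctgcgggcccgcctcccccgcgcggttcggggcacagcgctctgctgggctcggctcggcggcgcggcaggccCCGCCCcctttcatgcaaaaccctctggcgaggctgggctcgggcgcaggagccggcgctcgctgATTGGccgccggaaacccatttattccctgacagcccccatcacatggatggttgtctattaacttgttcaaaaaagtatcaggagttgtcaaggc
The Zic1 window held 2 CCAAT boxes and 3 GC boxes, that of Sox2 held 1 and 2, and that of Zic4 held 0 of either. Among 32851 windows of the same length, 37.4% held a CCAAT box and 35.7% a GC box. TATAAA, present in 13.6% of windows, and AACAAT, a core bound by SOX factors and present in 10.7%, were searched on both strands and matched in 0 of these 3 windows. The windows of Zic1 and Zic4 differed in base composition, with 65.3% and 46.0% G or C, and that of Sox2 had 66.3%. A match describes letters only. The RefSeq gene model of Zic4 also reaches to an earlier start that overlaps the start of Zic1 on the opposite strand, a stretch the window of Zic4 leaves out.

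The 8 array medians lay between 3.59 and 3.65, and a value under the median of its array is in the range where background limits differences. A gene was tested if it exceeded that median on 4 or more arrays, which kept 12416 genes. Only Zic1, Zic2 and Sox2 of the 9 members passed, each by its own levels: Zic2 on 8 arrays, and Zic1 and Sox2 on exactly 4. Sox2 passed by a thin margin, since on dorsal replicate 2 it stood at 3.61 against an array median of 3.60. Nkx6-1 exceeded the median on 3 arrays and Zic4 on 1, and Zic5, Sox1, Olig2 and Pax6 on 0 arrays. All 6 vessel wall genes (Cdh5, Acta2, Tagln, Pecam1, Kdr and Myh11) passed the filter. So did all 14 sclerotome genes in the table.

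Dorsal replicate 1 stood apart from the other dorsal arrays in genes of neurons. The 8 pan-neuronal genes, all of them highest on that array among the dorsal arrays, exceeded the mean of the other 3 by a median of 2.68 (range 0.71 to 4.26), where the median over all named genes was -0.04 and 22.4% of genes were highest there. Tubb3, the neuronal beta tubulin, was at 8.85 on dorsal replicate 1 and 4.25 to 5.34 on the others. The mean of the 8 genes was 7.60 on that array, 4.60 to 5.41 on the other dorsal arrays and 4.46 to 6.39 on the ventral arrays. Tissue differences and profile distances that rest on this array are therefore given with and without it. The part of these neural genes in the levels of the members was not tested.

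Zic1, which acts in dorsal neural tube and somite, was at 6.72, 3.94, 3.58 and 4.03 on dorsal replicates 1 to 4 and at 2.90, 2.93, 3.97 and 2.81 on ventral replicates 1 to 4. Dorsal replicate 1 was 2.69 above the next array, and the other dorsal arrays lay near the array medians. Ventral replicate 3 reached the level of those dorsal arrays, so the tissues overlapped. The dorsal mean was 4.57 ± 1.45 and the ventral mean 3.15 ± 0.55 (SD, n = 4), a ventral minus dorsal difference of -1.41 (SE 0.62), and of -0.70 (SE 0.28) without dorsal replicate 1. In such mixed tissue, fewer cells of a type and less RNA per cell cannot be told apart.

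Zic2, a Zic factor of the neural tube and midline, was the only Zic member above the array median on all 8 arrays. It was at 5.37, 4.61, 5.01 and 5.02 on the dorsal arrays and at 4.66, 4.31, 4.29 and 4.16 on the ventral arrays. The tissues overlapped only in that ventral replicate 1 slightly exceeded dorsal replicate 2. The dorsal and ventral means were 5.0 ± 0.31 and 4.36 ± 0.21 (SD, n = 4), a difference of -0.65 (SE 0.20), lower in ventral tissue in 4 of 4 replicate numbers. Of all named genes, 7.24% were lower in every replicate number. Without dorsal replicate 1 the difference was -0.52 (SE 0.19).

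Zic4, the neighbour of Zic1, was at 3.88 on dorsal replicate 1 and at 2.94, 2.93 and 2.42 on dorsal replicates 2 to 4. Its ventral values were 2.67, 2.79, 2.84 and 2.72, so dorsal replicate 1 was the only array where it exceeded the array median. The difference of -0.29 (SE 0.25, from a fit over all named genes, as for the other members under the filter) became -0.01 without dorsal replicate 1. Zic5, the protein-coding neighbour of Zic2 on chromosome 14, stayed between 2.84 and 3.35 on the 8 arrays, under the median of every one. Its difference was 0.13 (SE 0.12). Its highest array was ventral replicate 3. Values under the medians cannot decide whether Zic5 shared the excess of Zic1 or the higher dorsal values of Zic2.

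Sox2 was at 7.83 on dorsal replicate 1 and at 3.61, 2.65 and 2.34 on dorsal replicates 2 to 4. On the ventral arrays it was at 4.93, 2.82, 4.51 and 2.65, so ventral replicates 1 and 3 were high and the other two low. The tissue means of 4.11 ± 2.54 and 3.73 ± 1.16 (SD, n = 4) differed by -0.38 (SE 1.10), less than the spread between arrays. Without dorsal replicate 1 the sign turned, to 0.86 (SE 0.59). With group medians in place of means it was 0.54.

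Sox1, the close relative of Sox2, was at 3.46 on dorsal replicate 1 and at 2.85 to 3.09 on the other 7 arrays. Dorsal replicate 1 was again the highest, but still under its array median. Pax6 lay between 2.76 and 3.26 and differed by 0.00 (SE 0.12) between the tissues. Olig2 lay between 2.40 and 3.02, with every dorsal array above every ventral array (2.60 to 3.02 against 2.40 to 2.59), as for 1.84% of all named genes. Its difference of -0.26 (SE 0.11) lies wholly under the array medians. On dorsal replicate 1, where Sox2 was high, Olig2 was at 2.60, level with dorsal replicate 3.

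Nkx6-1 ran the other way. It was at 3.52, 3.34, 3.25 and 3.05 on the dorsal arrays and at 3.82, 3.94, 3.29 and 3.83 on the ventral arrays. Ventral replicates 1, 2 and 4 were above every dorsal array, and ventral replicate 3 lay among the dorsal values. The difference was 0.43 (SE 0.17), and by replicate number it ran from 0.04 (number 3) to 0.78 (number 4). Nkx6-1 exceeded the array median on only 3 arrays and failed the filter, so background limits this difference.

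**Figure D1:**
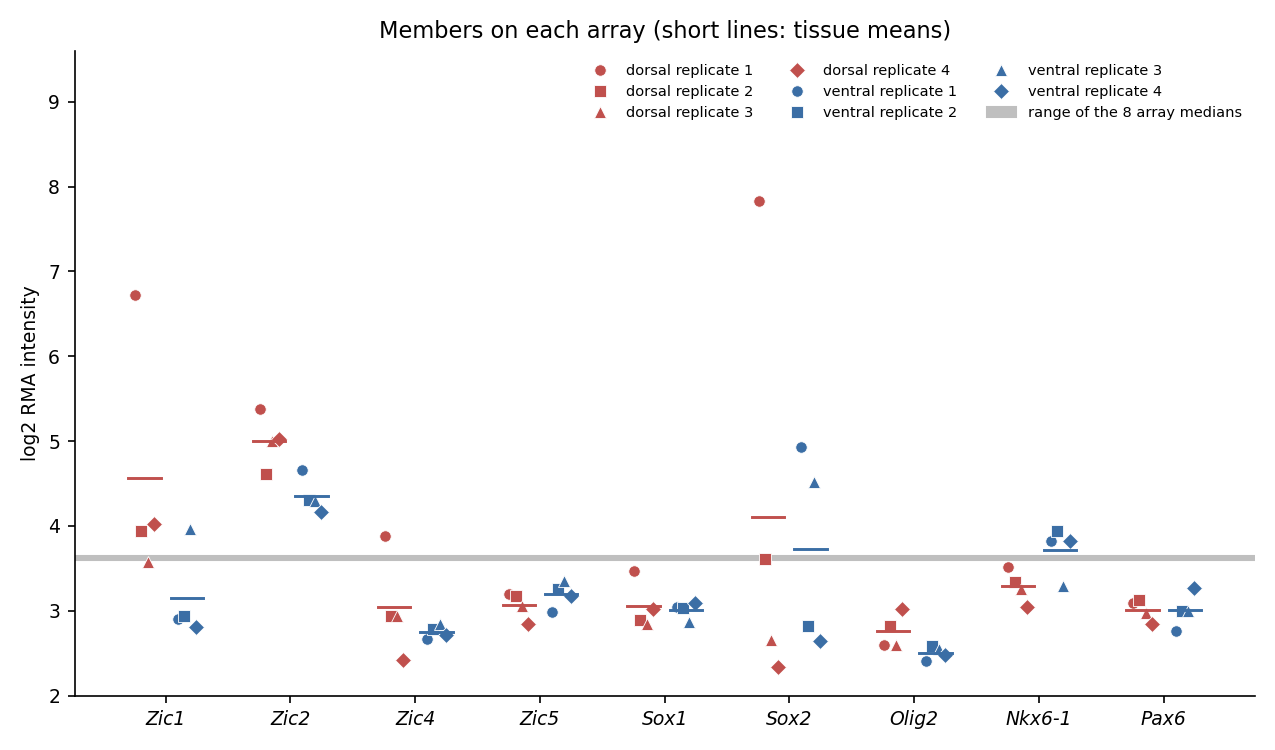
Log2 RMA intensity (vertical axis) of the 9 members on the 4 dorsal (red) and 4 ventral (blue) arrays, with marker shapes for the replicate number, short lines for tissue means and a grey band for the range of the array medians. Zic1 (6.72) and Sox2 (7.83) stand out on dorsal replicate 1, Zic2 is above the band on every array, and Zic5, Sox1, Olig2 and Pax6 stay under it.

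Ventral minus dorsal differences were below 0 for 7 of the 9 members, against 50.1% of all named genes, and for 4 of the 9 without dorsal replicate 1. The median difference was -0.47 over the 4 Zic members and -0.05 over the 5 neural progenitor members, and -0.27 and 0.09 without that array, against 0.00 over all named genes. In the fit of all 12416 tested genes with limma, 0 of the 3 members that passed the filter were called at an adjusted p under 0.05, where 0.0322% of tested genes (4 genes) were called. At an unadjusted p under 0.05 there were 2 of the 3, Zic1 and Zic2, with 7.99% of tested genes. Zic2 stayed under that threshold in every fit that included it, but Zic1 did not. A fit with a stricter filter left both genes out. The unadjusted p of Zic1 (limma) was 0.0457, 0.0790 with array weights, 0.0631 with no filter, and 0.0876, 0.0899 and 0.0970 without ventral replicates 1, 2 and 4 in that order. With the replicate block and both arrays of number 1, 2 or 4 left out it was 0.0981, 0.0795 and 0.0931. Because the members were chosen with this contrast known, these counts are a description and nothing is read from them.

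The excess of dorsal replicate 1 over the other dorsal arrays was the feature that set the members apart from each other. It was 4.96 for Sox2, 2.87 for Zic1, 1.11 for Zic4, 0.55 for Sox1 and 0.50 for Zic2, and between -0.22 and 0.31 for Zic5, Nkx6-1, Pax6 and Olig2. Zic1 and Sox2 were more than 1 above each of the other 7 arrays there, which held for 120 of the 24675 named genes (0.486%). Ordered by that gap, Sox2 was at rank 9 and Zic1 at rank 13. Counting any gap, 5 of the 9 members were highest on dorsal replicate 1 of all 8 arrays, against 11.1% of named genes. For this measure 1 array stands against 3, so there is no test.

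Most other neural tube genes showed little excess on that array, but only 9 of the 20 other progenitor genes passed the filter. Of the 20, 5 were under the array median on all 8 arrays, where background limits any difference. Of 20 other progenitor genes, 3 exceeded the mean of the other dorsal arrays by more than 1, against 1.86% of named genes, and the median was 0.07. These 3 were Fabp7, a fatty acid binding protein of radial glia (6.90), Nes, the intermediate filament nestin (1.63), and Ptprz1, a receptor phosphatase of glia (1.09). Fabp7 and Nes were also more than 1 above every other array there. Ptprz1 was not, at 3.69 on dorsal replicate 1 and 5.36 on ventral replicate 1, and it failed the filter. Sox3, another progenitor factor of the Sox1 and Sox2 group, did not share it, at 3.39 on dorsal replicate 1 and 3.79 to 4.26 on the other arrays. Hes5, a Notch target of progenitors, differed by 0.17.

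The 6 genes listed for roof plate and dorsal neural tube, which share their domain with Zic genes in the embryo, showed no such excess. Their 6 values lay between -0.09 and 0.24, with Lmx1a, Gdf7 and Wnt1 at 0.24, -0.09 and 0.14, and 5 of the 6 were under the array median on all 8 arrays. For those 5, background limits any difference. Floor plate and notochord genes also lay near 0, from -0.39 to 0.13 over 4 genes, with Foxa2 at 0.03 and Shh at 0.13. Pax3, which also acts in the dorsal neural tube, is counted below with the dermomyotome list and had an excess of 2.52.

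Among 18 spinal neuron genes, 4 were more than 1 above each other array on dorsal replicate 1, where 0.486% of named genes were. These were Barhl2, Lhx1 and Lhx5, homeobox factors of spinal interneurons, and Slc17a6, a vesicular glutamate transporter. Slc17a6 was at 5.21 on dorsal replicate 1 and at 2.81 to 3.33 on the other 7. Barhl2 was at 5.90 there and at 3.52 to 3.99 elsewhere. The motor neuron genes of the list showed no such excess over the mean of the other dorsal arrays, with Mnx1 at 0.10, Lhx3 at -0.11 and Chat at 0.04. Lhx3 and Chat exceeded the array median on 0 arrays, so background limits any difference. Mnx1 exceeded it on 4 arrays, with values of 3.35 to 3.81 close to the medians. Values this near background cannot decide whether motor neuron genes shared the excess.

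Sclerotome genes were not higher on the array where Zic1 was highest. Of 14 sclerotome genes, 12 were below the mean of the other dorsal arrays on dorsal replicate 1 (56.8% of named genes were), with a median of -0.75. Pax1, Pax9 and Nkx3-2, transcription factors of the sclerotome, were lower there by 0.74, 0.60 and 1.00 in that order, at 5.36, 6.06 and 4.59. The 8 dermomyotome and myotome genes had a median of 0.19, with the muscle determination factors Myf5 at 0.05 and Myog at 0.21. Pax3 was the exception of that list. It acts in the dermomyotome and also in the dorsal neural tube, and was at 5.70 on dorsal replicate 1 and 2.70 to 3.29 on the other 7 arrays.

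**Figure D2:**
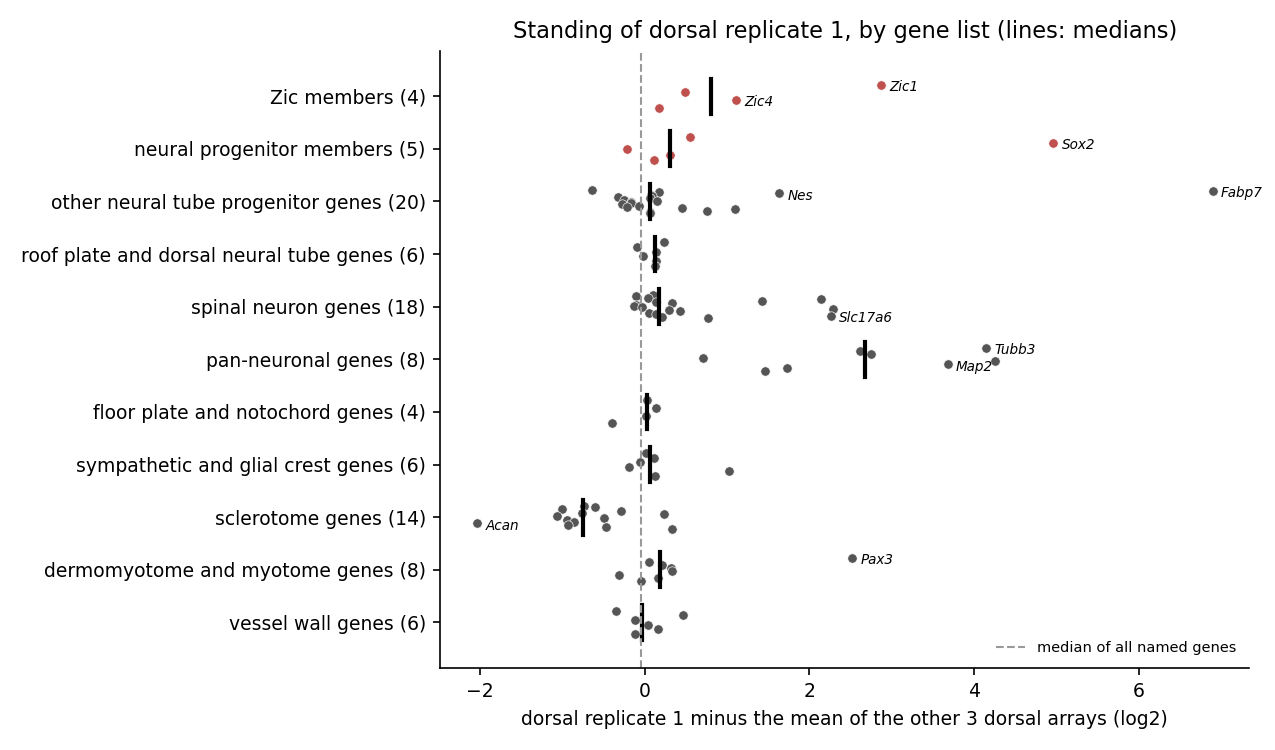
Value on dorsal replicate 1 minus the mean of the other 3 dorsal arrays (horizontal axis, log2) for each gene of 11 lists, with members in red, black lines for list medians and a dashed line for the median of all named genes. Zic1 (2.87) and Sox2 (4.96) lie with Fabp7, the pan-neuronal genes and Pax3 on the right, while sclerotome genes centre on -0.75.

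Across the tissues, 12 of the 14 sclerotome genes were lower in ventral tissue, with a median difference of -0.86, and -1.10 without dorsal replicate 1. Pax9 and Col2a1 of that list were called at an adjusted p under 0.05 (limma, Benjamini-Hochberg), as were 0.0322% of tested genes. With the replicate number as a block, or without any 1 of dorsal replicates 2 and 3 or ventral replicates 2 to 4, 0 genes were called. Of 20 other neural progenitor genes, 9 lay lower in ventral tissue and 11 lay higher, with a median of 0.07 and 0 called, and 1 of the 9 tested had an unadjusted p under 0.05. Of 18 spinal neuron genes, 14 were lower in ventral tissue, and of 8 pan-neuronal genes 5 were. These lists had medians of -0.13 and -0.15, and of -0.01 and 0.66 without dorsal replicate 1. Only 5 of the 18 and 7 of the 8 were tested, with 0 called and 0 at an unadjusted p under 0.05 (limma).

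Likeness between a gene and a list was measured as the mean absolute distance between the gene's values, centred on their mean, and the median of the centred list genes, in log2 units over 8 arrays. A gene with no variation lies at the distance of a flat line, so a list is near only when its distance is below that. The median profile of the sclerotome genes ran from -0.64 to 0.80. Nearly flat were those of the neural progenitor members (-0.19 to 0.09), other neural progenitor genes (-0.11 to 0.07) and spinal neuron genes (-0.11 to 0.14). Distances to those nearly flat lists stay close to the flat line, so they cannot show whether a widely varying gene follows them. For Zic1 the flat line was at 0.80, the sclerotome genes at 0.82, the other neural progenitor genes at 0.82, the dermomyotome and myotome genes at 0.73 and the pan-neuronal genes at 0.73. Over 8 arrays, therefore, Zic1 was no nearer to the sclerotome list than to a flat line. The pan-neuronal list was then the nearest of the 7 lists, at 0.728, with the dermomyotome and myotome list close behind at 0.734. Without dorsal replicate 1 the order changed, with the flat line at 0.49, the sclerotome genes at 0.30, the other neural progenitor genes at 0.53 and the pan-neuronal genes at 0.78. On the 7 remaining arrays the sclerotome list was the nearest of the 7 lists compared with Zic1. There Zic1 exceeded the array median only on dorsal replicates 2 and 4 and ventral replicate 3, so background limits this likeness. The sclerotome profile, centred over 8 arrays, was mainly a step on those arrays, from 0.45 to 0.80 on dorsal and -0.64 to -0.32 on ventral ones. A gene lower in ventral tissue lies nearer to such a step, so this distance cannot show that Zic1 follows sclerotome in particular. Pax1 and Pax9 of that list, each taken alone, were at 0.91 and 0.75 from Zic1 on those arrays, farther than the flat line.

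Sox2 lay nearest to the pan-neuronal genes, at 0.49 against 1.38 for the flat line, and at 0.28 against 0.85 without dorsal replicate 1. The sclerotome genes were at 1.6 and 1.05 from it, farther than the flat line in both cases. On ventral replicates 1 and 3, where Sox2 was at 4.93 and 4.51, Tubb3 was at 8.11 and 7.07 against 3.87 and 5.16 on ventral replicates 2 and 4. Dbh, a catecholamine enzyme of sympathetic cells, was at 9.88 and 8.51 on the former and at 3.94 and 6.00 on the latter. The mean of the 6 sympathetic and glial crest genes was 6.48 and 5.63 on ventral replicates 1 and 3, 4.25 and 4.81 on ventral replicates 2 and 4, and 4.45 to 4.84 on the dorsal arrays. This mean rose mainly through Dbh and Th. Th was at 8.12 and 6.55 on ventral replicates 1 and 3, and at 4.23 and 4.63 on ventral replicates 2 and 4. Sox10 and Erbb3 of that list varied little, at 3.73 to 4.4 and 3.63 to 4.08 over the ventral arrays. Zic1 was at 2.90 on ventral replicate 1 and at 3.97 on ventral replicate 3. Of the ventral arrays high in Sox2, it was thus low on the former and at its highest ventral value on the latter. The part of sympathetic cells in the ventral Sox2 values was not tested.

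The distances of Zic2 differed little between most lists. They were 0.28 to the dermomyotome and myotome genes, 0.31 to the spinal neuron genes, 0.33 to the other neural progenitor genes and 0.39 to the sclerotome genes, with the flat line at 0.34. Without dorsal replicate 1 they were 0.26, 0.29, 0.29 and 0.34 in that order, with the flat line at 0.28, so only the dermomyotome and myotome list stayed nearer than the flat line. Zic4 was at 0.62 from the sclerotome genes, 0.24 from the spinal neuron genes and 0.20 from the dermomyotome and myotome list, which includes Pax3, with the flat line at 0.26. Without dorsal replicate 1 these were 0.59, 0.122 and 0.146, and the flat line was at 0.134. The dermomyotome and myotome list was then no longer nearer to Zic4 than the flat line. Zic5 lay 0.125 from the flat line and no list was nearer, while without dorsal replicate 1 the flat line was at 0.135 and the spinal neuron genes at 0.125. To the 5 neural progenitor members the distances of Zic1, Zic2, Zic4 and Zic5 were 0.83, 0.37, 0.28 and 0.132, and 0.55, 0.32, 0.152 and 0.141 without that array. Their flat lines were at 0.80, 0.34, 0.26 and 0.125, and at 0.49, 0.28, 0.134 and 0.135 without it. No Zic gene was thus nearer to these members than to a flat line, and the small values of Zic4 and Zic5 reflect how little they vary.

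**Figure D3:**
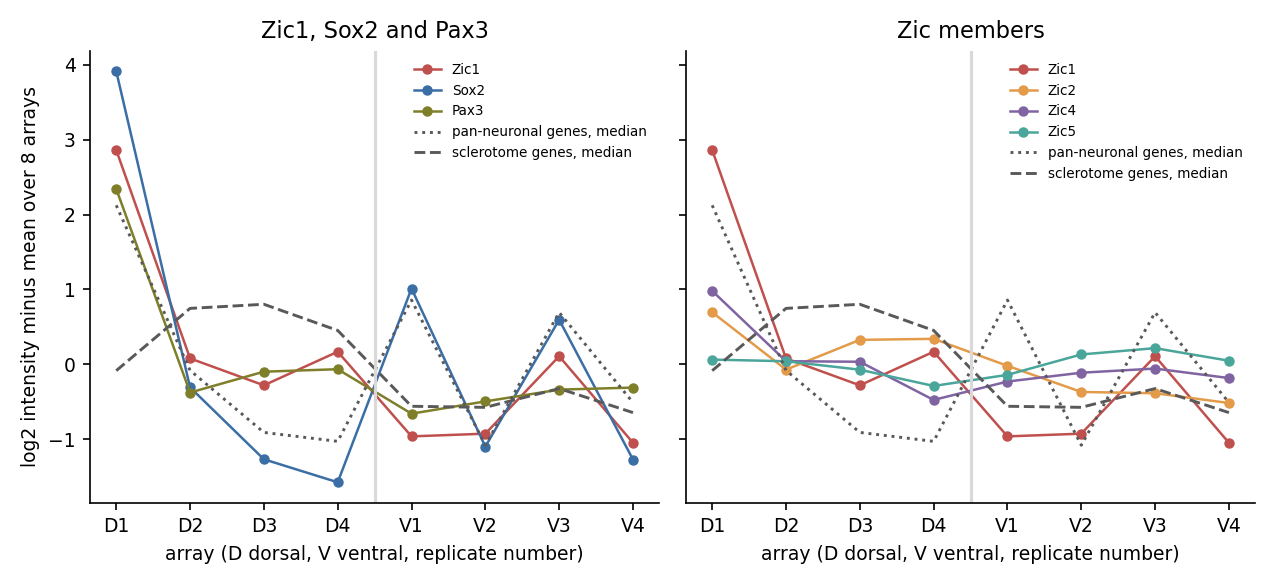
Log2 intensity minus the gene's mean over 8 arrays (vertical axis) on dorsal (D1 to D4) and ventral (V1 to V4) arrays for Zic1, Sox2 and Pax3 (left) and the 4 Zic members (right), with the median centred profile of pan-neuronal (dotted) and sclerotome (dashed) genes. Zic1, Sox2 and Pax3 peak on dorsal replicate 1, where the sclerotome line is lower than on the other dorsal arrays, Sox2 but not Zic1 is high on ventral replicate 1, and both are high among ventral arrays on ventral replicate 3.

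**Figure D4:**
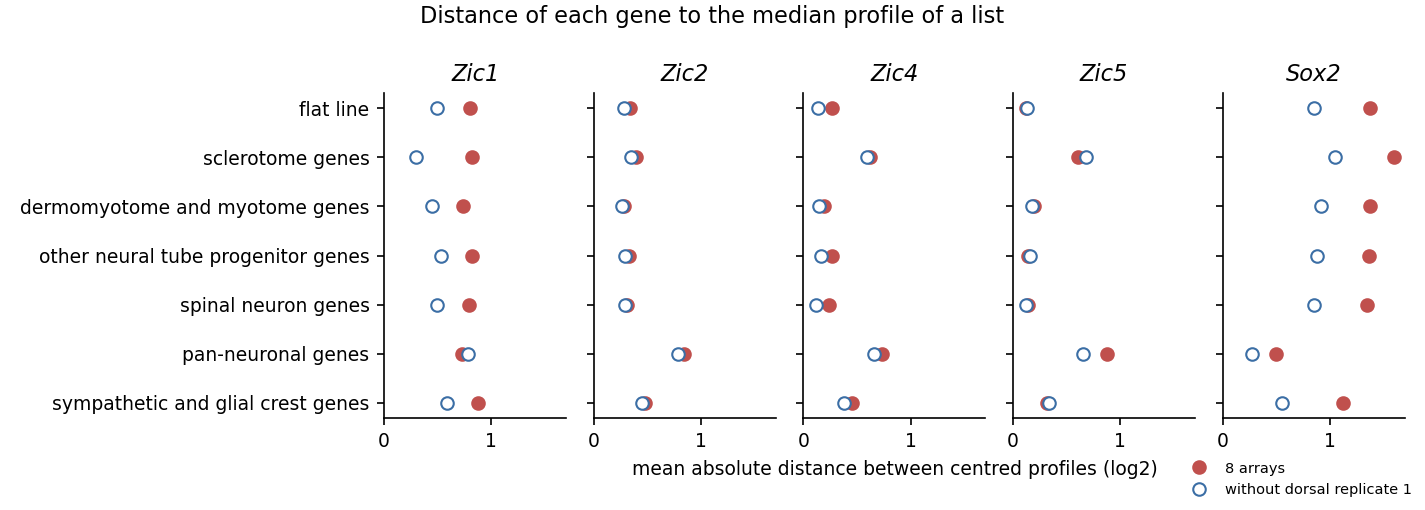
Mean absolute distance (horizontal axis, log2) of 4 Zic genes and Sox2 to a flat line and to the median profiles of 6 lists, over 8 arrays (filled) and without dorsal replicate 1 (open). For Zic1 the sclerotome distance is 0.82 over 8 arrays and 0.30 without that array, and the pan-neuronal distance 0.73 and 0.78. Sox2 is nearest to the pan-neuronal genes in both.

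Single genes were compared with Zic1 and Zic4 by the same distance over the 8 arrays. The 5 tested genes nearest to Zic1 were Hoxb9 (0.43), Gpr21 (0.44), Sst (0.46), Mospd1 (0.46) and Dpysl5 (0.47), where the flat line was at 0.80. Hoxb9, a homeobox gene of trunk position, was at 6.85 on dorsal replicate 1 and 3.80 to 4.36 on the other arrays, and Sst, which encodes the peptide somatostatin, was at 8.24 and 3.73 to 5.94. Dpysl5, a protein of growing axons, was at 6.08 and 3.70 to 4.70. All 5 were highest on dorsal replicate 1, which the measure favours. The other arrays also entered the choice, so distances without dorsal replicate 1 are no separate check. Without that array their distances were 0.41, 0.24, 0.51, 0.36 and 0.34 in that order against a flat line at 0.49, so Sst was then no nearer than the flat line. Pax3, under the filter and so outside this search, was at 0.41 from Zic1, and at 0.39 without that array.

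The 5 tested genes nearest to Zic4 were Yae1d1 (0.094), Rnf146 (0.11), Adnp2 (0.11), Pla2g2d (0.12) and Ss18l1 (0.12), with the flat line at 0.26. On dorsal replicate 1 they exceeded the other dorsal arrays by 0.69 to 1.16. Without that array they lay 0.069 to 0.129 from Zic4, with the flat line at 0.134. This is no separate check, since the other arrays also entered the choice of these genes. Zic4 was under the array median on each of those arrays, where background limits any likeness. The neighbouring genes Zic4 and Zic1 were 0.68 apart, and 0.47 apart without dorsal replicate 1.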

How the data were processed

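The deposited values are log2 intensities on 8 arrays of the mouse Gene 2.0 ST type. The submitters' processing notes name Affymetrix Expression Console and RMA (background correction, equalised arrays, probe summary), with versions not given in the sources used here. Between 200 and 1000 pg of RNA was amplified before hybridisation, per the labels' protocols, which can add spread for weak genes. Of 25429 rows, named by Entrez number, 24675 had 1 symbol in the platform table, 0 several and 754 none. Symbols were updated through RefSeq GRCm38.p6.

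The 12416 genes that exceeded the array median on 4 or more arrays were fitted with limma 3.58.1 in R 4.3.3 (lmFit, eBayes with trend and robust estimation, two-sided, Benjamini-Hochberg, threshold 0.05), with tissue as the only term. The fitting script was tested on simulated data. The replicate number as a block was an alternative, because the labels do not say that a number marks 1 embryo. With no label on separate embryos, p-values cover only the spread among these arrays, and the number of arrays limits precision. Other alternatives were a random block, other filters, array weights, centring, repeated quantile normalization and leaving out arrays.

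The members and lists were chosen with earlier results of these data known. Named genes are the members, the first 3 genes of each list in the table, the genes nearest to Zic1 and Zic4 (not predicted genes, microRNA or snoRNA), and genes chosen after their values were seen (Nes, Ptprz1, the later vessel wall genes, Barhl2, Lhx1, Lhx5, Slc17a6, Dbh and Col2a1 of the lists, and the genes of the closing section). Of the list genes, 10 had no row and were not used here.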

Additional observations from a re-analysis of the deposited data

Results flagged for a closer look

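Among 46 named genes, the highest or lowest array of a tissue was checked for a gap to its neighbour that, as a share of that tissue's range, exceeded Dixon's critical value for 4 samples. Of 92 gene and tissue groups, 9 exceeded it. Chance flags about 1 in 20, but 7 of the 9 concern dorsal replicate 1, and members and nearest genes were named with their levels on that array known, so the count is not comparable with chance. For Zic1 the gap share was 0.857 on dorsal replicate 1 and 0.895 on ventral replicate 3, both at the high end.

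On dorsal replicate 1 the share was 0.953 for Elavl3, an RNA-binding protein of neurons, 0.886 for Pax3, 0.903 for Hoxb9, 0.894 for Gpr21, 0.863 for Mospd1 and 0.884 for Pla2g2d. The last 4 of these were named for their likeness to Zic1 or Zic4. Phox2a, a factor of sympathetic neurons, was high on ventral replicate 1, with a share of 0.917.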

How the results depend on the processing

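The count of genes called between the tissues was 4, and 0 with the replicate block, 7 with array weights and 0 to 20 with 1 array left out (20 without ventral replicate 1, 8 without dorsal replicate 1, 9 without dorsal replicate 4, and 0 without dorsal replicates 2 or 3 or ventral replicates 2, 3 or 4). With the block and both arrays of a number left out it was 0 to 9, with 9 without number 1. At an unadjusted p under 0.05 the count of 992 became 1543 with no filter and 530 with the stricter filter. Deviations of same-numbered arrays correlated at 0.107, 0.029, 0.022 and 0.12, and 3 of 4 dorsal arrays correlated best with their own number. Each number has 1 array of each tissue, so the block cannot change a tissue difference, only its SE. With it the SE went from 1.10 to 0.67 for Sox2, from 0.62 to 0.59 for Zic1 and from 0.20 to 0.18 for Zic2.

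The median difference of the Zic members kept its direction in the settings run for it, from -0.57 to -0.27. The difference of Zic1 ran from -2.01 (block, without number 3) to -0.61 (block, without number 1) and that of Zic2 from -0.78 to -0.52. The median excess on dorsal replicate 1 was 0.81 for the Zic members and 1.68 for the 2 past the filter. For the neural progenitor members it was 0.31, 0.099 against all 7 other arrays, and 4.96 for Sox2, the member past the filter. For sclerotome genes it was -0.75, and -0.097 against all 7 other arrays, which include the ventral ones. An excess without dorsal replicate 1 has no value. The count of members lower in ventral tissue was 7, and 4 without that array, an alternative added after seeing the data. Members under the array medians (6 of 9 failed the filter) have differences limited by background.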

Other observations

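Of the 120 named genes more than 1 above every other array on dorsal replicate 1, those with the widest gaps included further genes of neurons, chosen here after their values were seen. Neurod6, a neuronal bHLH factor, was 4.79 above the next array, at 7.28. Dcc, the netrin receptor of commissural axons, was 3.49 above it, Nhlh2, a bHLH factor of young neurons, 3.22, and Dcx, a microtubule protein of migrating neurons, 3.04.

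A pair of LIM homeobox genes from the spinal neuron list had another pattern. Lhx2 was at 6.94 on ventral replicate 1 and 3.13 to 4.58 on the other 7 arrays, and Lhx9 at 6.86 and 4.29 to 5.46. Neither was highest on dorsal replicate 1, where they were at 4.00 and 5.09.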
